A study of Mus musculus with 8 samples.

Results

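Imprinted genes are copied from only the maternal or only the paternal chromosome. The choice is set by DNA methylation laid down in the germline at imprinting control regions, and it is kept after fertilization by KRAB zinc finger proteins and DNA methyltransferases. Many imprinted genes lie in clusters that pair growth regulators with long noncoding RNAs, and several of these noncoding RNAs carry microRNA genes. Many are active in the embryo and placenta and low in most adult tissues, and some are active in tumors. The 32 imprinted genes described here are well-known mouse examples, picked by symbol and not by any measured value, out of 55487 genes in the count table. They comprise 25 protein-coding genes and 7 noncoding RNAs at 16 loci, of which 19 are known as paternally expressed and 13 as maternally expressed in at least some tissues.

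The genes were followed in 8 tumors of LLC, a mouse lung carcinoma line of C57BL origin, grown under the skin of female C57BL/6J mice and collected at day 12. Cancer cells were wild-type in 4 tumors and labelled Ago2 knock-out (ΔAgo2) in the other 4. Ago2, or Argonaute 2, is the protein that holds microRNAs and cuts fully matched transcripts. Per the study's methods the knock-out came from a lentiviral CRISPR guide, puromycin selection and sorting of single cells into clones, and the hosts kept their own Ago2. The legend of the study's Ago2 blot, which covers LLC and KP cells, states that 1 clone was chosen for implanting in mice. If the 4 ΔAgo2 tumors all came from that clone, they repeat tumors and not knock-outs. The loss of Ago2 therefore cannot be told apart from other features of that line, such as those of a clone. All 8 libraries carried 1 batch label, and no label ties the tumors of the 2 genotypes to each other. Parental alleles cannot be separated in an inbred strain, so only the total level of each gene was measured. In whole tumors a lower level can stem from fewer cells of a type or from less RNA per cell, and these cannot be told apart.

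Libraries held from 7903288 to 268564145 counts, so genes of low level were measured least precisely in wild-type tumor 4, the shallowest. Levels are given in CPM, counts scaled to a common library total, with the deposited TPM (counts also divided by gene length) where genes are set against each other. A gene was called when its adjusted p in edgeR's quasi-likelihood test was under 0.05 over the 16061 genes that passed the count filter. Ago2 RNA itself was not lower in ΔAgo2 tumors, with 154 ± 28.9 CPM (SD, n = 4) in wild-type and 239.5 ± 99.2 CPM (SD, n = 4) in ΔAgo2 tumors and an edgeR adjusted p of 0.205, so its level does not check the labels. Of the 10 lung epithelial markers, 6 were tested, and only the lung factor Nkx2-1 was at 0 counts in all 8 tumors. The list summed to between 509 and 1266 CPM in wild-type and between 720 and 1253 CPM in ΔAgo2 tumors. The fold change over all genes fell with GC content, at a Spearman correlation of -0.572 over genes, which do not vary independently, and values with that trend taken out of each library (the GC correction) are given beside the genes they moved most and, for the 22 imprinted genes tested, in the plot of both fits.

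Several of the loci carry microRNAs inside their host RNAs. The sequences of 3 such loci are shown, those inside H19, which was called, those inside Mest, which had a fold change near 0, and a pair from the large cluster of the Dlk1-Meg3 domain. The mature microRNAs below were taken from RefSeq on GRCm38.p6, 5′ to 3′, with the seed, bases 2 to 8, in capitals. Both arms of miR-675 are cut from an exon of H19, at chr7:142577112-142577133 and chr7:142577078-142577099 on the minus strand. Both arms of miR-335 lie within an intron of Mest, at chr6:30741314-30741336 and chr6:30741354-30741375 on the plus strand. The last pair, at chr12:109709102-109709123 and chr12:109710225-109710246 on the plus strand, lies between Rian and Mirg in the Dlk1-Meg3 domain, inside no exon of the 32 genes, and shares a seed.
miR-675-5p: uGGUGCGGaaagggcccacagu
miR-675-3p: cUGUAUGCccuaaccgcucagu
miR-335-5p: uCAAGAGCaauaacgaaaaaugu
miR-335-3p: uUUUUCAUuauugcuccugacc
miR-379-3p: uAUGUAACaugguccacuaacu
miR-411-3p: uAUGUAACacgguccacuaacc
In all, the reference table held 120 mature sequences of 61 hairpins inside these genes or between Dlk1 and Mirg, with 110 different seeds, and no seed was shared by more than 2 of them. The libraries were made with a kit that captures polyadenylated RNA, so they report on the host transcripts and not on the mature microRNAs. The 64 microRNA genes of these loci in the count table held 7 counts in all over the 8 tumors, and Mir675 held 0.

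Of the 32 imprinted genes, 22 passed the count filter and 5 of these were called. H19, Snrpn, Ndn and Peg10 were lower in ΔAgo2 tumors, and Impact was higher. Over all genes tested 3.49% were called, 1.36% higher and 2.12% lower. The wild-type and ΔAgo2 values did not overlap for 6 of the 22, the called genes and Peg13, beside 16.4% of all genes tested. The median log2 fold change of the 22 was -0.26, against 0.04 over all genes tested, and 15 of the 22 were negative. Since a gene could pass the filter through the group in which it was high, these counts describe the 22 and not all 32. The called genes included 4 of 13 tested paternally expressed and 1 of 9 tested maternally expressed genes. Among the noncoding RNAs 1 of 6 tested was called, and among protein-coding genes 4 of 16. The plot of CPM by tumor shows the 22 genes by locus.

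**Figure D1:**
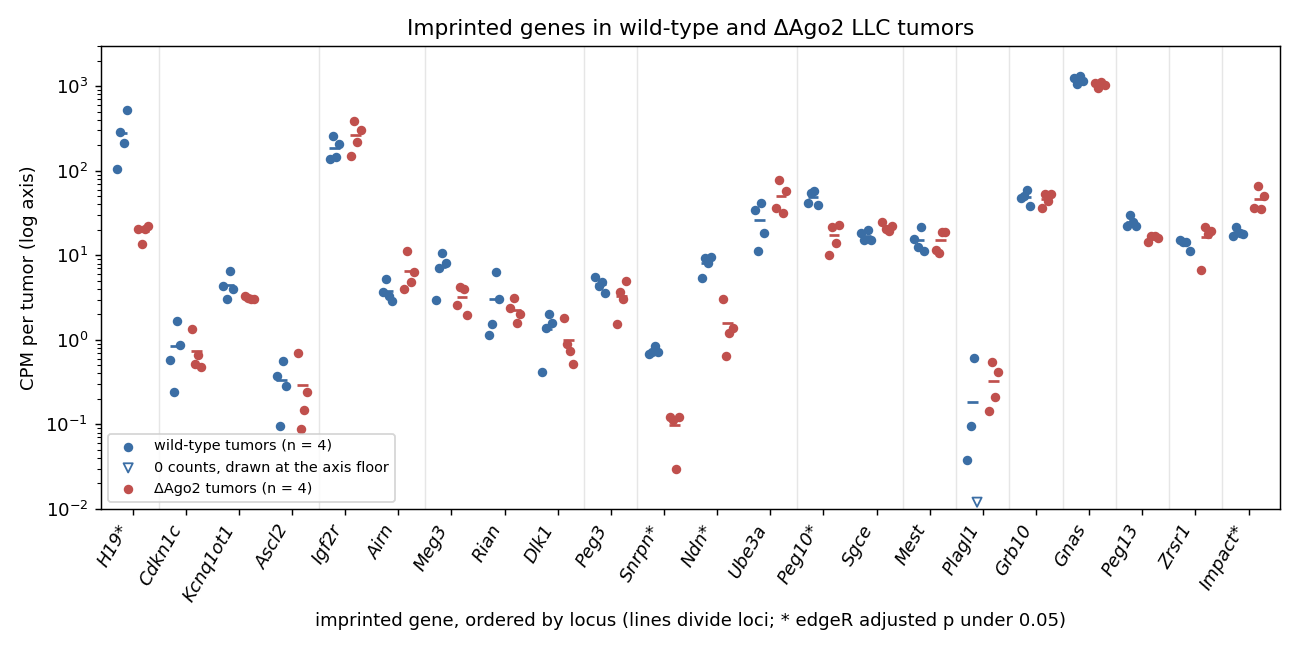
CPM of the 22 imprinted genes tested, on a log axis, with 1 point per tumor and a line at each group mean (4 wild-type tumors in blue, 4 ΔAgo2 tumors in red). The wild-type points of H19, Snrpn, Ndn and Peg10 lie above all ΔAgo2 points, those of Impact below them, and most other genes overlap.

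H19 is the maternally expressed noncoding RNA of the H19-Igf2 domain and the host of miR-675. It lies at chr7:142575529-142578143 on the minus strand of GRCm38 (ENSMUSG00000000031.16). Wild-type tumors 1 to 4 had 105, 289.6, 214 and 526 CPM of it. In ΔAgo2 tumors 1 to 4 it was 20.7, 13.7, 20.3 and 22.5 CPM. The lowest wild-type tumor thus stood well above the highest ΔAgo2 tumor, and the wild-type tumors were also the more variable group. Within wild-type the level rose as the library total fell, from 105 CPM at 52809635 counts to 526 CPM at 7903288 counts. The ΔAgo2 tumors showed no such order, and the part of depth in the wild-type spread was not tested. Group means were 284 ± 178 CPM and 19.3 ± 3.87 CPM (SD, n = 4 each), a 14.7-fold difference of means, with a log2 fold change of -3.88 (SE 0.448, edgeR adjusted p = 0.00215). Per length, H19 ranked with Gnas as the most abundant of the 32 genes in wild-type tumors, at 284.6 ± 131 TPM (SD, n = 4), and stood at 24.0 ± 5.73 TPM (SD, n = 4) in ΔAgo2 tumors, where Gnas, Igf2r and Impact had higher means. H19 was called in all 23 alternative settings, with log2 fold changes from -4.15 to -2.96.

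The 5 genes whose log2 CPM followed that of H19 most closely over the 8 tumors were Cacng7, Chrd, Twist1, Mrgprf and Kcnh2, with Pearson correlations of 0.995, 0.993, 0.992, 0.992 and 0.990. These values describe 8 libraries that fall into 2 groups, and all 5 genes were themselves called lower, with log2 fold changes from -3.60 (Cacng7) to -0.90 (Twist1). Twist1 is a mesenchymal transcription factor, Chrd encodes the BMP antagonist chordin, Kcnh2 a potassium channel and Cacng7 a calcium channel subunit.

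Igf2, the paternally expressed growth factor that shares enhancers with H19, held almost no counts. Wild-type tumors 1 to 4 held 4, 0, 12 and 0 counts of it and ΔAgo2 tumors 1 to 4 held 1, 1, 0 and 4. It was not tested. Of its 5723 exon bases, 3596 are shared on the same strand with Gm49394, which held 0 counts in all tumors, so reads from the common exons may not have been counted and the level of Igf2 may be understated. Other genes that carry or receive insulin-like growth factor signals were checked from a list of 16, of which 14 were tested. The median log2 fold change was 0.22, and 1 gene was called, beside 3.49% of all genes tested. Igf2bp1, which binds Igf2 messenger RNA and other fetal transcripts, was higher, with 14.2 ± 0.85 CPM in wild-type and 25.0 ± 1.75 CPM in ΔAgo2 tumors (SD, n = 4 each), a log2 fold change of 0.81 (edgeR adjusted p = 0.0396). It was not called without any 1 of wild-type tumors 1, 2, 3 or 4 or ΔAgo2 tumors 2, 3 or 4, with log2 fold changes from 0.77 to 0.85 and adjusted p-values from 0.0511 to 0.141 in those fits.

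The neighbouring Kcnq1ot1 domain showed no called gene. Kcnq1ot1, the paternally expressed antisense RNA that silences the domain in cis, ran at 4.31, 3.00, 6.50 and 4.01 CPM over wild-type tumors 1 to 4. ΔAgo2 tumors 1 to 4 had 3.32, 3.11, 3.07 and 3.07 CPM, so the groups overlapped through wild-type tumor 2. Its log2 fold change was -0.51 (SE 0.298, edgeR adjusted p = 0.288). After the GC correction it was -1.26 (adjusted p = 0.0453), and it was called. Kcnq1ot1 was also called, as lower, with limma voom (adjusted p 0.0375), and in no other of the 21 alternatives that tested it. Kcnq1ot1 has a GC content of 40.3%, against a median of 50.3% over genes tested, and it shares 121 exon bases with Kcnq1 on the other strand. Cdkn1c, a cyclin-dependent kinase inhibitor, ran from 0.238 to 1.68 CPM in wild-type and from 0.48 to 1.33 CPM in ΔAgo2 tumors, with a log2 fold change of -0.21 (edgeR adjusted p = 0.836). Ascl2, a trophoblast transcription factor, was under 0.70 CPM in every tumor, with a log2 fold change of -0.30 (adjusted p = 0.805). The fitted signs of Cdkn1c and Ascl2 turned with the GC correction. Phlda2, a placental growth inhibitor, held 3, 0, 5 and 0 counts in wild-type and 13, 19, 3 and 45 counts in ΔAgo2 tumors and was not tested.

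In the Snrpn-Ube3a locus, the counterpart of the human Prader-Willi and Angelman region, both paternally expressed genes that passed the filter were called lower. Of these, Snrpn was low in every ΔAgo2 tumor and could pass the filter through the wild-type group. Ndn encodes necdin, a MAGE family protein that restrains growth in neurons and other cells, and lies at chr7:62346569-62350262 on the plus strand (ENSMUSG00000033585.5). Its CPM in wild-type tumors 1 to 4 were 5.40, 9.20, 8.07 and 9.46, and in ΔAgo2 tumors 1 to 4 they were 3.06, 0.640, 1.19 and 1.38. Every wild-type tumor exceeded every ΔAgo2 tumor, with ΔAgo2 tumor 1 the nearest. The means were 8.03 ± 1.86 and 1.57 ± 1.04 CPM (SD, n = 4 each), with a log2 fold change of -2.36 (SE 0.458, edgeR adjusted p = 0.0244). Ndn was not called without wild-type tumor 2 (-2.28, adjusted p 0.0848), wild-type tumor 4 (-2.26, 0.0598), ΔAgo2 tumor 3 (-2.25, 0.0769) or ΔAgo2 tumor 4 (-2.28, 0.103), although its size hardly moved. Of 23 alternatives 14 called it, and it was not called at equal depth or in any fit with the replicate number as a block.

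Snrpn encodes SmN, a spliceosomal Sm protein that is abundant in neurons, and lies at chr7:59982495-60140219 on the minus strand (ENSMUSG00000102252.5). Its level was low, at 0.675, 0.715, 0.841 and 0.717 CPM in wild-type and 0.123, 0.114, 0.0298 and 0.123 CPM in ΔAgo2 tumors 1 to 4. The counts behind these values were 36, 15, 40 and 5 in wild-type and 6, 13, 1 and 35 in ΔAgo2 tumors. The wild-type values agreed closely in spite of these small counts, and the ΔAgo2 values all lay below them. The log2 fold change was -2.81 (SE 0.445, edgeR adjusted p = 0.0103), and without ΔAgo2 tumor 4 it was -2.92 (adjusted p = 0.060). Of the 21 alternatives that tested Snrpn 16 called it. Snrpn shares 216 exon bases with Snurf, which held 0 counts in all tumors, and 589 with Gm38393, which held 2, so reads from their common exons may not have been counted. Magel2, another MAGE gene beside Ndn, held 10, 1, 1 and 0 counts in wild-type tumors and 0 in each ΔAgo2 tumor. It was not tested, and a count of 0 allows up to 0.0105 CPM in the deepest ΔAgo2 library and 0.0895 CPM in the shallowest. Ube3a, the maternally expressed (in neurons) ubiquitin ligase of the locus, was not called. It was at 34.0, 11.2, 41.5 and 18.3 CPM in wild-type and 36.8, 78.3, 31.4 and 57.3 CPM in ΔAgo2 tumors, with overlapping groups, a log2 fold change of 0.95 (edgeR adjusted p = 0.175). With the GC correction this log2 fold change was 0.03, and Ube3a, at 38.2% GC, shares 1803 exon bases with the antisense Snhg14.

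Peg10 is a retrotransposon-derived gene needed for the placenta that encodes a Gag-like protein. It lies at chr6:4747306-4760517 on the plus strand (ENSMUSG00000092035.8), head to head with Sgce. Its CPM in wild-type tumors 1 to 4 were 41.8, 55.1, 57.8 and 39.1, and in ΔAgo2 tumors 1 to 4 they were 10.1, 21.9, 14.0 and 23.1. The groups did not overlap, and the difference of means, 48.5 ± 9.38 against 17.3 ± 6.27 CPM (SD, n = 4 each), was 2.81-fold. The log2 fold change was -1.49 (SE 0.288, edgeR adjusted p = 0.0244). Peg10 was not called without wild-type tumor 2 (-1.42, adjusted p 0.0877), ΔAgo2 tumor 3 (-1.39, 0.0788) or ΔAgo2 tumor 4 (-1.65, 0.0533). Of 23 alternatives 16 called it. Sgce, which encodes epsilon-sarcoglycan, is paternally expressed from the same control region. It was at 18.2, 15.1, 19.9 and 15.2 CPM in wild-type and 24.5, 20.4, 19.3 and 22.3 CPM in ΔAgo2 tumors, with a log2 fold change of 0.34 (edgeR adjusted p = 0.290). Sgce thus did not share the direction of Peg10 in the data as deposited, and with the GC correction it was at -0.16 (adjusted p = 0.696).

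Impact, the one called gene that was higher, encodes an inhibitor of the amino acid sensing kinase GCN2. It lies at chr18:12955852-12992950 on the plus strand (ENSMUSG00000024423.6). Its CPM in wild-type tumors 1 to 4 were 16.8, 21.8, 18.6 and 17.9, and in ΔAgo2 tumors 1 to 4 they were 35.9, 65.6, 35.3 and 50.6. All ΔAgo2 tumors lay above all wild-type tumors, with a log2 fold change of 1.32 (SE 0.242, edgeR adjusted p = 0.0188). With the GC correction the log2 fold change was 0.82 (adjusted p = 0.0856), and it was no longer called. Impact has a GC content of 45.3%, below the median of genes tested, and the part of GC content in its difference was not otherwise tested. It was also not called without wild-type tumor 2 (1.40, adjusted p 0.0515), ΔAgo2 tumor 2 (1.10, 0.0601) or ΔAgo2 tumor 4 (1.29, 0.0719). Of 23 alternatives 15 called it.

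Peg13, a paternally expressed noncoding RNA transcribed within an intron of Trappc9, was the sixth gene with groups apart. It was at 22.2, 29.6, 24.6 and 22.2 CPM in wild-type and at 14.4, 17.0, 16.9 and 16.0 CPM in ΔAgo2 tumors 1 to 4. Its log2 fold change was -0.62 (SE 0.193, edgeR adjusted p = 0.0925), and it was called with DESeq2 (adjusted p 0.0111), with limma voom (0.0149) and with the length correction (0.0357). Trappc9, a vesicle trafficking gene from the list of other imprinted genes, was lower, at 94.2 ± 30.7 CPM in wild-type and 45.6 ± 5.05 CPM in ΔAgo2 tumors (SD, n = 4 each), a log2 fold change of -1.05 (edgeR adjusted p = 0.0471). It was not called without any 1 of wild-type tumors 2 and 4 and ΔAgo2 tumors 2, 3 and 4, with log2 fold changes from -1.12 to -0.88 and adjusted p-values from 0.0926 to 0.171, and was -0.69 (adjusted p = 0.0385) with the GC correction. Peg13 and Trappc9 lie on the same strand and share no exon base, and reads from unspliced Trappc9 RNA would count to Peg13. The ratio of Peg13 to Trappc9 counts ran from 0.178 to 0.402 in wild-type and from 0.319 to 0.394 in ΔAgo2 tumors. On the other side of Trappc9 lie Chrac1, with a log2 fold change of 0.25 (adjusted p = 0.572), and Ago2 itself. Of the 4 genes tested in this stretch of chromosome 15, only Trappc9 was called.

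**Figure D2:**
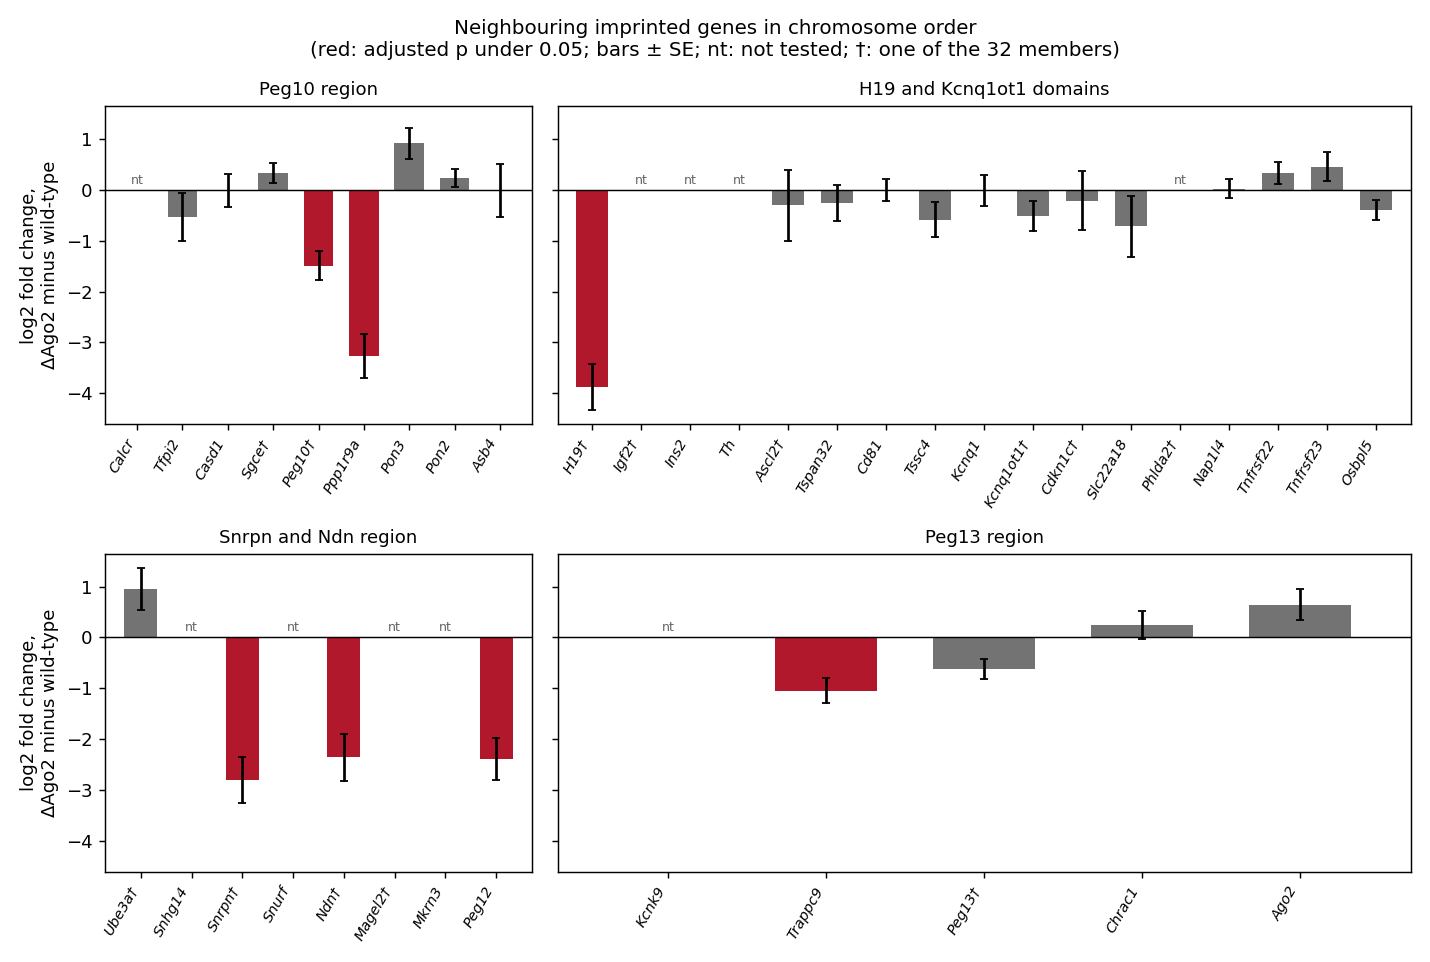
Log2 fold change (ΔAgo2 minus wild-type, bars, ± SE of the edgeR fit, 4 against 4 tumors) of neighbouring imprinted genes in chromosome order at 4 regions, with called genes in red and genes under the count filter marked nt. Called genes were 2 of 8 tested in the Peg10 region, 1 of 13 in the H19 and Kcnq1ot1 domains, 3 of 4 in the Snrpn and Ndn region and 1 of 4 in the Peg13 region, all lower. Over all genes tested 2.12% were called lower. Each region drawn holds a called gene, and regions without one, such as the Dlk1-Meg3 domain, are not drawn. Some genes, such as Snrpn and Peg12, could pass the count filter through the wild-type group.

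To see whether neighbours moved with the called genes, a second list of 58 imprinted genes was read from the same fit. Of these, 40 were tested, with a median log2 fold change of 0.00. In this list 3 were called, all lower, beside 3.49% called and 2.12% called lower over all genes tested. Besides Trappc9 the called genes were Ppp1r9a and Peg12. Ppp1r9a, an actin-binding protein of synapses, follows Peg10 on chromosome 6 and was at 1.52, 2.57, 1.89 and 3.15 CPM in wild-type and 0.226, 0.351, 0.119 and 0.203 CPM in ΔAgo2 tumors 1 to 4. Its log2 fold change was -3.26 (SE 0.441, edgeR adjusted p = 0.00449), and it was called in all 20 settings that tested it. Peg12, a paternally expressed gene near Ndn, was at 0.930 ± 0.320 CPM in wild-type and 0.182 ± 0.0421 CPM in ΔAgo2 tumors (SD, n = 4 each), with a log2 fold change of -2.39 (edgeR adjusted p = 0.0136). Peg12 was not called without ΔAgo2 tumor 2 (-2.34, adjusted p 0.0649), ΔAgo2 tumor 3 (-2.51, 0.0508) or ΔAgo2 tumor 4 (-2.40, 0.0848). Mkrn3, between Magel2 and Peg12, held 19, 4, 11 and 0 counts in wild-type and 4, 4, 0 and 17 counts in ΔAgo2 tumors and was not tested. Thus all 3 paternally expressed genes of the Snrpn and Ndn region that could be tested were lower. Snrpn and Peg12, however, were low in every ΔAgo2 tumor and could pass the count filter through the wild-type group. The count therefore describes the tested genes and not the region. In the Peg10 region the other genes tested were not called. Their log2 fold changes ran from -0.52 (Tfpi2) to 0.92 (Pon3), and Pon3, next to Ppp1r9a, was higher in all ΔAgo2 than in all wild-type tumors (adjusted p = 0.101). Casd1 and Asb4 were both at -0.01, and at -0.42 and -0.43 with the GC correction.

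In the Dlk1-Meg3 domain no gene was called. Meg3, the maternally expressed noncoding RNA at the head of the microRNA and small nucleolar RNA cluster, had a log2 fold change of -1.18 as deposited and -1.15 with the GC correction. It was at 2.92, 7.10, 10.8 and 8.17 CPM in wild-type and at 2.61, 4.21, 4.03 and 1.96 CPM in ΔAgo2 tumors 1 to 4, and the groups overlapped only through wild-type tumor 1. The SE of the former was 0.416 (edgeR adjusted p = 0.116), and Meg3 was called only with DESeq2 (-1.20, adjusted p 0.0350) among the 23 alternatives. Rian, the next noncoding RNA along the cluster, ran from 1.14 to 6.37 CPM in wild-type and from 1.58 to 3.11 CPM in ΔAgo2 tumors, with a log2 fold change of -0.41 (edgeR adjusted p = 0.628). Its highest value was in wild-type tumor 3, and without that tumor the log2 fold change was 0.36. With the GC correction it was -1.18 (adjusted p = 0.209), close to the value of Meg3. Mirg, the host of the distal microRNAs, held 7, 0, 22 and 1 counts in wild-type and 12, 15, 9 and 33 counts in ΔAgo2 tumors and was not tested. Dlk1, a paternally expressed Notch-related membrane protein of progenitor cells, ran from 0.412 to 2.02 CPM in wild-type and from 0.515 to 1.81 CPM in ΔAgo2 tumors, with an adjusted p of 0.630. Rtl1, a retrotransposon-derived placental gene, held at most 4 counts in any tumor.

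The Igf2r-Airn locus pairs the receptor that clears Igf2 with the antisense RNA that silences it on the paternal allele. Igf2r was at 139, 258, 145 and 206 CPM in wild-type and 149.1, 390.0, 217 and 303 CPM in ΔAgo2 tumors 1 to 4, with overlapping groups. Its log2 fold change was 0.50 (SE 0.315, edgeR adjusted p = 0.317). Among the 23 alternatives Igf2r was called, as higher, only with limma voom (adjusted p 0.0206). Airn ran from 2.87 to 5.20 CPM in wild-type and from 3.98 to 11.2 CPM in ΔAgo2 tumors, with a log2 fold change of 0.80 (adjusted p = 0.190), and of 0.42 (adjusted p = 0.514) with the GC correction. The ratio of Airn to Igf2r counts was low in every tumor, from 0.0139 to 0.0261 in wild-type and from 0.0208 to 0.0286 in ΔAgo2 tumors. The 2 genes overlap on opposite strands with no shared exon base, and the strand setting of the counting was not stated, so reads of intronic Igf2r RNA in Airn exons cannot be set apart. Slc22a3, an organic cation transporter silenced by Airn in placenta, held 12, 0, 30 and 0 counts in wild-type and 13, 5, 2 and 52 counts in ΔAgo2 tumors and was not tested.

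At the Peg3 locus, Peg3, a zinc finger gene, was at 5.57, 4.39, 4.83 and 3.58 CPM in wild-type and 1.54, 3.71, 3.01 and 4.92 CPM in ΔAgo2 tumors 1 to 4. The groups overlapped, with a log2 fold change of -0.48 (edgeR adjusted p = 0.397). With the GC correction the log2 fold change of Peg3 was -0.80 (adjusted p = 0.176). Its neighbour Usp29, a ubiquitin protease, held 5, 4, 7 and 1 counts in wild-type and 2, 13, 3 and 52 counts in ΔAgo2 tumors and was not tested. Zim1, another zinc finger gene, held 5, 0, 5 and 0 counts in wild-type and 0, 4, 0 and 16 counts in ΔAgo2 tumors and was not tested either.

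None of the genes at the remaining loci was called. Gnas, which encodes the stimulatory G protein alpha subunit and alternative products of the same locus, was the most abundant of the 32 genes in CPM, from 1069 to 1325 CPM in wild-type and from 943 to 1114 CPM in ΔAgo2 tumors. Its log2 fold change was -0.19 (edgeR adjusted p = 0.530), and in TPM the means were 280.3 ± 58.2 and 284.4 ± 47.6 (SD, n = 4 each). Grb10, an adaptor that damps insulin and growth factor receptors, was at 48.8 ± 8.80 and 46.5 ± 8.04 CPM (SD, n = 4 each), with a log2 fold change of -0.07 (adjusted p = 0.849). Mest, the hydrolase-like host of miR-335, was at 15.2 ± 4.46 and 15.0 ± 4.53 CPM (SD, n = 4 each), with a log2 fold change of -0.03 (adjusted p = 0.959). The standard errors of Gnas, Grb10 and Mest were 0.189, 0.208 and 0.286, and the fitted sign of each turned under other scalings or on the TPM scale. Mest shares 912 exon bases with Copg2 on the other strand, and Gnas 1469 with Gm20721. Zrsr1, a splicing factor gene within Commd1 on the other strand, with 412 shared exon bases, ran from 11.3 to 15.1 CPM in wild-type and from 6.67 to 21.7 CPM in ΔAgo2 tumors, with an adjusted p of 0.657. Plagl1, a growth-restraining zinc finger factor, held 2, 2, 29 and 0 counts in wild-type and 7, 62, 7 and 120 counts in ΔAgo2 tumors, with an adjusted p of 0.663. Nnat, a membrane proteolipid of brain and fat, was seen mainly in single tumors, with 4, 0, 60 and 0 counts in wild-type and 164, 2, 3 and 35 counts in ΔAgo2 tumors. Zdbf2, a gene with a role in postnatal feeding and growth, held at most 12 counts in any tumor, and neither gene was tested.

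**Figure D3:**
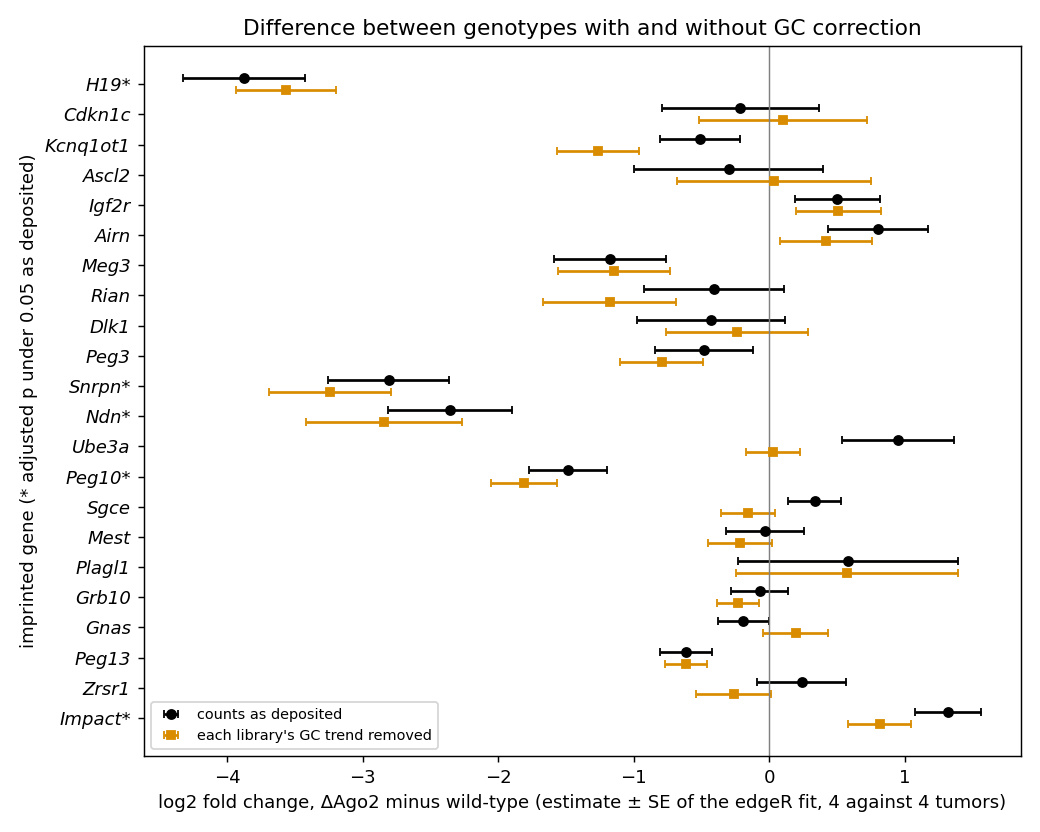
Log2 fold change (ΔAgo2 minus wild-type) of the 22 imprinted genes tested, as edgeR estimate ± SE from 4 against 4 tumors, for the counts as deposited (black) and with the GC trend of each library taken out (orange). H19, Snrpn, Ndn and Peg10 stay on the same side, Impact moves from 1.32 to 0.82, Ube3a from 0.95 to 0.03 and Kcnq1ot1 from -0.51 to -1.26.

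With the GC correction 3.97% of all genes tested and 5 of the 22 imprinted genes were called. These were H19 (-3.57, adjusted p 0.000896), Snrpn (-3.25, 0.00326), Ndn (-2.84, 0.0248), Peg10 (-1.81, 0.00304) and Kcnq1ot1. The 4 lower genes of the uncorrected fit were thus among them, and the 22 genes had a median GC content of 47.8%, against 50.3% over all genes tested.

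Proteins that set and keep imprints were read from a list of 20, of which 19 were tested, with a median log2 fold change of 0.30. Of the 19, 1 was called, beside 3.49% of all genes tested. The 1 called gene was Zfp57, the KRAB zinc finger protein that binds methylated control regions and recruits Trim28. Zfp57 (ENSMUSG00000036036.15) stood at 8.53, 15.3, 10.4 and 11.3 CPM over wild-type tumors 1 to 4 and at 1.66, 2.80, 3.13 and 2.40 CPM in ΔAgo2 tumors 1 to 4. The groups were well apart, with a log2 fold change of -2.19 (SE 0.299, edgeR adjusted p = 0.00485), and Zfp57 was called in 21 of 23 alternatives. Trim28 had a log2 fold change of -0.76 (adjusted p = 0.0933), and the maintenance methyltransferase Dnmt1 had -0.11 (adjusted p = 0.799). Dnmt3a, a de novo methyltransferase, had 0.77 (adjusted p = 0.0700), and 0.92 (adjusted p = 0.0381) after the GC correction. No DNA methylation was measured, so these are levels of transcripts only. The Zfp57 recognition hexamer TGCCGC, searched on both strands in windows of 300 bases from 250 before to 50 after each RefSeq start, was present in 10 of 39 promoters of the 25 imprinted genes with an entry (25.6%) and in 11.6% of all 32851 promoters. No entry was held for H19, Peg10, Impact, Peg13, Cdkn1c, Sgce or Rtl1, which include 3 of the 5 called genes. The hexamer itself holds a CpG, and the median number of CpG sites was 13 per window for the imprinted genes and 7 for all promoters. The hexamer was in 1 of 4 Snrpn windows and not in the Ndn window or any of the 4 Gnas windows, and the control regions themselves often lie outside such windows.

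Markers of other cell types moved with some of these genes, and their part in the differences was not tested. Of 10 neural markers, 7 were tested and 3 were called lower, Nefl (log2 fold change -4.46), Nefm (-3.80) and Gap43 (-4.70). Map2, another neuronal marker, went the other way with groups apart, at a log2 fold change of 1.84 (adjusted p = 0.0876), and Tubb3 (-0.48) and Stmn2 (-0.56) were not called. The neural list summed to between 22.3 and 27.8 CPM in wild-type and between 11.4 and 16.8 CPM in ΔAgo2 tumors, and the neuronal marker Elavl4 was at 0 in all tumors. Most of that sum was Tubb3, and without it the sums were 7.63 to 11.2 CPM and 1.97 to 2.44 CPM. Of 10 fibroblast markers 1 was called lower, Fap (-1.52), 7 had a negative and 3 a positive log2 fold change (Pdgfra 0.68, Dpt 0.46 and Dcn 0.16). With the GC correction 3 were called lower, Fap (-2.26, adjusted p 0.00949), Col1a2 (-1.47, 0.0317) and Lum (-1.24, 0.00632). Dcn then turned to -0.65 (0.0634), while Pdgfra (0.51) and Dpt (0.26) stayed positive and were not called. The fibroblast list summed to between 4988 and 7324 CPM in wild-type and between 2393 and 4769 CPM in ΔAgo2 tumors. Most of this sum was Col3a1, and without it the sums were 1159.9 to 2651 CPM and 986 to 1147 CPM. The sums of both lists, though not all their genes, were thus below the wild-type range in every ΔAgo2 tumor, as were H19, Ndn, Snrpn and Peg10. The 10 skeletal muscle markers had no called gene, but all 10 log2 fold changes were negative, with a median of -2.87. They summed to 250, 327, 3578 and 471 CPM in wild-type tumors 1 to 4 and to between 50.1 and 208 CPM in ΔAgo2 tumors. Their sums, too, were thus below the wild-type range in every ΔAgo2 tumor. Without wild-type tumor 3, H19, Snrpn, Ndn, Peg10 and Impact were all still called. The other wild-type tumors still had higher muscle sums than every ΔAgo2 tumor, so that fit could not set muscle content apart, and its part was not tested. The 10 keratinocyte markers summed to between 15.6 and 587 CPM in wild-type and between 465 and 907 CPM in ΔAgo2 tumors, and 1, Krt10, was called higher (2.06). All 10 log2 fold changes were positive, with a median of 1.43, and 4 of the genes had groups apart. Their part, too, was not tested. Adipocyte, endothelial, leukocyte, Schwann and lung epithelial lists had no called gene and medians from -0.24 to 0.50, and their summed levels overlapped between genotypes. With the GC correction 2 of 6 lung epithelial markers tested were called higher, Krt8 (0.85, adjusted p 0.00949) and Cdh1 (1.43, 0.0463). Krt19 (-0.11) and Foxa2 (-0.50) were then negative and not called. Of 8 Schwann markers tested 1 was then called higher, Erbb3 (1.06, 0.0384), and the others, of both signs, were not.

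**Figure D4:**
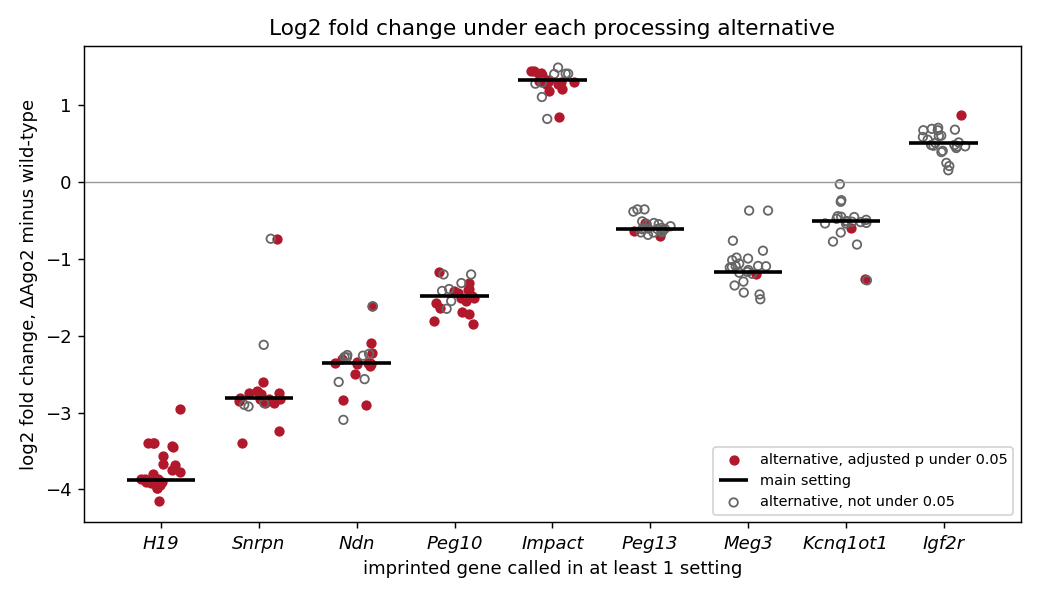
Log2 fold change (ΔAgo2 minus wild-type) of the imprinted genes tested in the main setting and called in at least 1 setting. A line marks the main setting and a point each alternative, filled red where the adjusted p was under 0.05. Magel2, called only with no count filter, is not drawn. H19 is filled in all 23 alternatives and lies between -4.15 and -2.96, while the other genes hold both filled and open points. Points nearest to 0 for Snrpn come from fits on log2(TPM + 1), a scale that understates changes of low genes.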

How the data were processed

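RNA of 4 wild-type and 4 ΔAgo2 tumors was sequenced paired-end on a NovaSeq after a stranded Illumina mRNA preparation. The authors deposited raw counts per gene, whole numbers with no normalization, and TPM values made from them by dividing by gene length. For cultured cells the study names mm10 and featureCounts, which was taken to hold for the tumors. The labels list STAR. The annotation release, strand setting and treatment of multi-mapping reads are not given in the sources used here. Of 55487 identifiers, 99.29% matched GENCODE M21 (GRCm38) with their version, and 300 were matched without it.

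Genotypes came from the labels. Counts were filtered with filterByExpr, scaled by TMM and compared with the quasi-likelihood test of edgeR 4.0.16 in R 4.3.3, genotype being the only term, with Benjamini-Hochberg adjusted p-values over the 16061 genes tested, called under 0.05. The study names DESeq2, so its Wald test (1.42.0) was run as an alternative, as were limma 3.58.1 with voom and on TPM, other scalings and filters, GC and length corrections, thinning to equal depth, the replicate number as a block and leaving out each library. GC and length trends were estimated in each library from genes that averaged 50 counts or more. All 32 members were named, with Ago2, called genes of the other lists and the 5 genes most correlated with the member of smallest p. Mkrn3, Casd1, Asb4, Pon3, Tfpi2, Map2, Tubb3, Stmn2, Col3a1, Pdgfra, Dpt, Dcn, Chrac1, Trim28, Dnmt1 and Dnmt3a were named after their values were seen. So were Col1a2, Lum, Krt8, Krt19, Cdh1, Foxa2 and Erbb3. Members and lists were chosen with earlier results of these data known. CPM uses TMM-scaled totals, and log2 CPM a prior count of 2.

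Library totals lay between 7903288 and 268564145 counts. A gene at 0 counts was given a limit of 3 counts, for counting error only, since reads carry no molecular identifiers. Pairs of libraries within a group differed by more than sampling noise, and all 8 were kept. P-values measure the spread between these tumors, 1 per mouse. On simulated counts of 15808 genes with this design, the edgeR test recovered 144 of 194 genes changed by 2 on the log2 scale (74.2%), with 7 false calls. These simulated counts held no GC trend, unlike the tumors, so they do not show how many false calls such a trend would bring.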

Additional observations from a re-analysis of the deposited data

Results flagged for a closer look

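In the 44 groups of 4 values of the tested imprinted genes, a gap test singled out 3 values that lay far from the other 3 of their group. About 1 in 20 groups, here 2.2, would be singled out by chance. Snrpn in ΔAgo2 tumor 3 was at 0.0298 CPM, from 1 count, while the other ΔAgo2 tumors lay between 0.114 and 0.123 CPM. Kcnq1ot1 in ΔAgo2 tumor 1 was at 3.32 CPM, against 3.07 to 3.11 CPM in the others, a small gap in a tight group. Plagl1 in wild-type tumor 3 was at 0.61 CPM, against 0 to 0.0953 CPM in the other wild-type tumors, and the same tumor held the highest sum of skeletal muscle markers.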

How the results depend on the processing

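Of 16061 genes tested, 560 were called. The count was 2292 with the DESeq2 Wald test, 4476 with limma voom, 983 with no count filter, 1247 with the length correction, and 153, 107 and 77 with limma on log2(TPM + 1), on log2(TPM + 0.1) and on log2(TPM + 1) with no filter. It ran from 88 to 1793 when 1 library was left out. The 5 imprinted genes called became 8 (2 higher) with limma voom, 3 (2 lower) at equal depth, where 18 were tested, and 2 (0 higher, 2 lower) with each TPM fit. With the GC correction 0 were higher. When 1 library was left out 1 to 5 were called, 0 to 1 higher and 1 to 4 lower. The cause of these shifts was not tested.

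The replicate numbers are shared between genotypes by name only. Deviations of same-numbered tumors correlated at -0.236, 0.103, -0.0448 and -0.29, and 0 tumors matched best with their own number. With the replicate block 70 genes and 1 imprinted gene (0 higher, 1 lower, H19) were called, with the block and GC correction 371 genes, and with the block and length correction 1.6e+02 genes (39 higher and 119 lower) and 3 imprinted genes (2 lower). H19 kept its call in every alternative run.

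Signs turned for 8 genes that were not called in the main or the other setting. Cdkn1c was 0.024 with the replicate block, 0.10 with the GC correction, 0.55 with both, 0.029 with the block and length correction, 0.045, 0.20 and 0.045 in the TPM fits and -0.65 to 0.50 with 1 library left out. Ascl2 was 0.033 with the GC correction, 0.26 with the block and GC correction and -1.10 to 0.13 with 1 library left out. Rian was 0.092 with limma voom and -0.69 to 0.36 with 1 library left out. Sgce was -0.16 with the GC correction and -0.18 with the block added, Zrsr1 -0.26 and -0.34, and Gnas 0.19 and 0.26, with 0.029 in each TPM fit. Mest was 0.034 with library totals only, 0.070 with limma voom, 0.024 with no filter, 0.17, 0.19 and 0.17 in the TPM fits and -0.19 to 0.18 with 1 library left out. Grb10 was 0.0052 with limma voom, 0.14, 0.15 and 0.14 in the TPM fits and -0.17 to 0.040 with 1 library left out. With no filter Magel2 was also called, but its ΔAgo2 libraries all held 0 counts, so the fitted value depends on the prior count. Genes at a few counts in the shallow libraries, such as Snrpn, Plagl1 and the 10 untested genes, are limited by depth.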
